A study of Gallus gallus with 2 samples.

Results

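Retinal ganglion cells (RGCs) were examined among the OTX2ECR2::GFP-sorted cells of 2 single cell libraries, 1 OTX2CRISPR and 1 CTRL. A cell was counted as an RGC when at least 2 of the 6 markers POU4F1, POU4F2, POU4F3, RBPMS2, RPRML and CNTN2 had a UMI (unique molecular identifier, 1 counted transcript molecule) and EBF1 and EBF3 together had at least 1. It also had to hold at most 2 UMIs of RBP4, a retinol carrier used here as a mark of cone photoreceptors, and UMIs of at most 1 of BRINP2, SPIK2, ERBB4, SULF2 and DUSP4. This last set, called the BRINP2 group here, marked a population that was large in the OTX2CRISPR library. Of 10074 cells with 200 to 3200 detected genes, 294 met the rule, 221 in the OTX2CRISPR library and 73 in the CTRL library.

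Both libraries were made from retinas of chick embryos, which were electroporated ex vivo at day 5 of incubation and then kept in culture for 48 h. Every retina received Cas9 under the ubiquitous CAG promoter and the OTX2ECR2::GFP reporter, in which an enhancer of mouse OTX2 drives green fluorescent protein, and sorting kept the fluorescent cells. OTX2CRISPR retinas also received guide 2 against OTX2, a homeodomain transcription factor needed for photoreceptors, while CTRL retinas received the guide vector without a targeting sequence and were the contralateral eyes of the same female embryos. The number of retinas pooled in each library is given in the study as 3 in one place and 4 in another. Electroporation reaches only some cells, and each delivered cell can carry a different edit, so neither library is a clone. The sort selected fluorescent cells, so the shares below are shares of sorted cells and not of the retina. Each condition had a single library, so no difference could be tested. All 95% intervals below are exact (Poisson for UMI sums, binomial for shares and ratios) and cover counting error only. Retina, sort and library cannot be told apart from the condition.

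RGCs are the projection neurons of the retina, whose axons form the optic nerve. They are among the first neurons to leave the cell cycle in the embryonic retina. In vertebrates the bHLH factor ATOH7 prepares progenitors for this fate, and ISL1 and the POU4F factors then act together to drive differentiation, axon growth and survival.

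RGCs made up 4.46% of OTX2CRISPR cells (221 of 4951, interval 3.91% to 5.08%) and 1.42% of CTRL cells (73 of 5123, interval 1.12% to 1.79%). The share was 3.13-fold higher in the OTX2CRISPR library (log2 ratio 1.65, interval 1.26 to 2.05). Both shares are over all cells kept, cones included. These held 92 cone gate cells (at least 10 UMIs of RBP4) in OTX2CRISPR and 2116 in CTRL. The ratio therefore also moves with the number of cones, and that part was not tested. The RGC counts depended on the gate. Without the BRINP2-group limit it held 523 OTX2CRISPR cells (10.6%) and 126 CTRL cells (2.46%), a log2 ratio of 2.10. With at least 3 markers it held 151 OTX2CRISPR cells (3.05%) and 62 CTRL cells (1.21%), a log2 ratio of 1.33. The share was higher in the OTX2CRISPR library under each of the 10 other forms of the gate or cell filter that were tried.

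**Figure D1:**
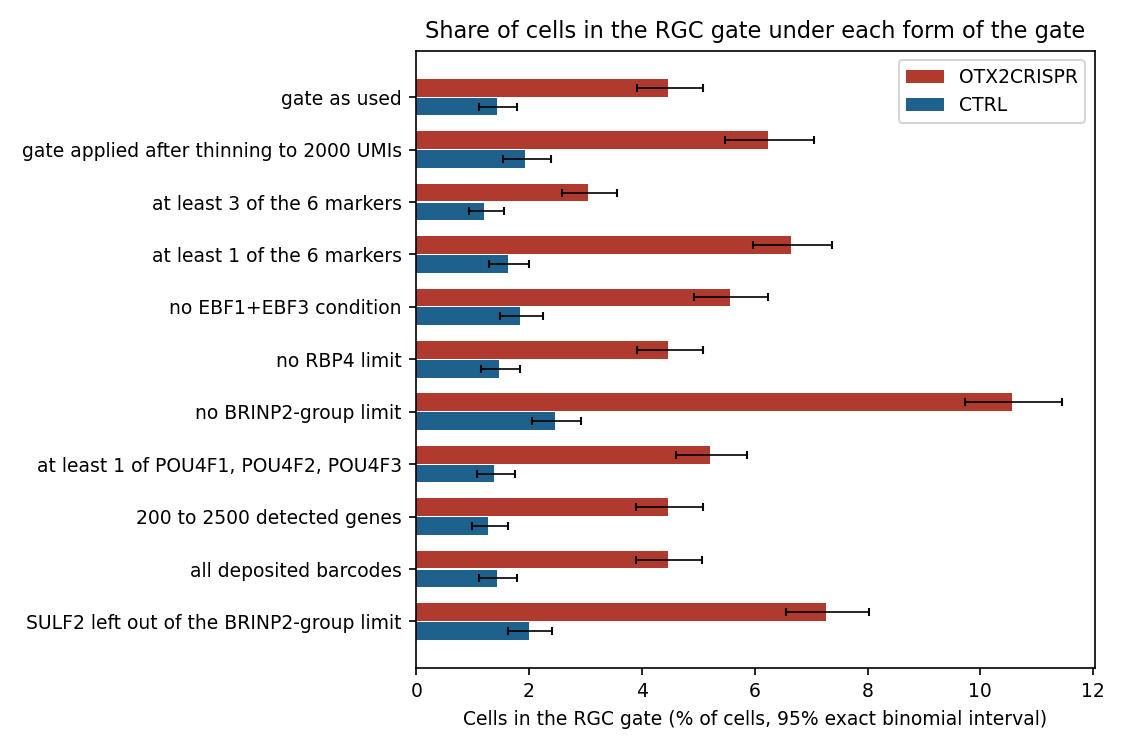
Share of cells in the RGC gate, in percent of the cells kept (cones included), for the gate as used and for 10 other forms of it or of the cell filter. OTX2CRISPR bars lie above CTRL bars, and error bars are exact 95% binomial intervals over cells, with 1 library per condition. The OTX2CRISPR share was the larger one throughout, and removing the BRINP2-group limit raised it most, to 10.6%.

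The cells at the edge of the gate were counted as a description. Among cells that met the other conditions, 70 OTX2CRISPR and 11 CTRL cells lay just inside the marker condition with 2 markers, and 108 OTX2CRISPR and 10 CTRL cells lay just outside it with 1. The BRINP2-group limit left out 302 OTX2CRISPR and 53 CTRL cells that met every other condition. In these left-out cells SULF2, a heparan sulfate endosulfatase, had a UMI in 87.1% in OTX2CRISPR and 88.7% in CTRL, and SPIK2 in 83.8% in OTX2CRISPR and 54.7% in CTRL. SULF2 was also present within the gated RGCs, in 41.2% of OTX2CRISPR and 54.8% of CTRL cells. When SULF2 was left out of the limit, the gate held 360 OTX2CRISPR (7.27%) and 102 CTRL cells (1.99%), an alternative chosen after these values were seen.

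The gate genes are given as a description only, since cells were selected by them and their presence cannot check the label. All 4 genes proposed as markers of these cells were present in both libraries. POU4F3, a POU-domain factor of RGCs and of hair cells, had a UMI in 69.2% of OTX2CRISPR and 80.8% of CTRL RGCs. RBPMS2, an RNA-binding protein used to identify RGCs, was found in 61.1% of OTX2CRISPR and 79.5% of CTRL RGCs. CNTN2, an axonal adhesion molecule, was found in 71.5% of OTX2CRISPR and 82.2% of CTRL RGCs, and EBF3, a helix-loop-helix factor, in 88.2% and 86.3% of them in OTX2CRISPR and CTRL. Among the 3 POU4F genes the pattern over cells was uneven. POU4F3 alone was detected in 39.4% of OTX2CRISPR RGCs (interval 32.9% to 46.1%) and 50.7% of CTRL RGCs (38.7% to 62.6%). POU4F1 had a UMI in 13.1% of OTX2CRISPR RGCs (29 of 221) and 23.3% of CTRL RGCs (17 of 73), and POU4F2 in 41.2% of OTX2CRISPR (91 of 221) and 24.7% of CTRL RGCs (18 of 73). In summed UMIs POU4F2 reached 244 CPM in OTX2CRISPR RGCs (CPM being UMIs per 1000000 UMIs of the same cells), against 85.4 CPM in CTRL RGCs (log2 ratio 1.51), while POU4F3 was at 423 CPM in OTX2CRISPR and 396 CPM in CTRL RGCs.

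RGCs held more UMIs than the rest of each library, with a median of 3315 in OTX2CRISPR RGCs and 4074 in CTRL RGCs, against 2531.5 in other OTX2CRISPR cells and 2772.5 in other CTRL cells. A deeper cell can meet the marker conditions more readily, and can also fail the limits more readily. When each cell was first thinned to 2000 UMIs and shallower cells were left out, the gate took 6.23% of OTX2CRISPR cells (233 of 3738) and 1.93% of CTRL cells (80 of 4148). In all, 38 cell barcodes occurred in both libraries, and 1 OTX2CRISPR RGC and 0 CTRL RGCs carried a barcode found in the other library.

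Markers of other cell types were counted in the gate. Of the cone list, 12 of 20 genes in OTX2CRISPR RGCs and 11 of 20 in CTRL RGCs were at 0, and the summed level was 75.1 CPM in OTX2CRISPR and 85.4 CPM in CTRL RGCs, against 175 CPM in other OTX2CRISPR and 1636 CPM in other CTRL cells. RBP4, a gate gene outside the cone list, had a UMI in 5 of 221 OTX2CRISPR RGCs (2.26%) and 19 of 73 CTRL RGCs (26.0%). It was at 6.59 CPM in OTX2CRISPR RGCs and 67.1 CPM in CTRL RGCs, against 190 CPM in other OTX2CRISPR and 4218 CPM in other CTRL cells. The gate limits RBP4 and the other CTRL cells held many cones, so low cone levels beside them were partly set in advance. In CTRL the median log2 ratio of the 15 tested cone genes was -3.11 against all other cells. Against other cells of at most 2 RBP4 UMIs it was 0. The erythroid genes had 0 UMIs in the RGCs of both libraries. The microglia and vessel genes had 9 UMIs in OTX2CRISPR RGCs and 0 in CTRL RGCs. The horizontal cell list, which also holds ISL1, summed to 1551 CPM in OTX2CRISPR RGCs and 1472 CPM in CTRL RGCs, against 2667 CPM in other OTX2CRISPR and 1265 CPM in other CTRL cells. Of its 12 genes with at least 100 UMIs, 1 was at least 2-fold higher and 8 lower in OTX2CRISPR RGCs. In CTRL RGCs 2 of 12 were higher and 6 lower. Over all genes 5.33% were higher and 11% lower in OTX2CRISPR, and 12.4% and 17.1% in CTRL. The study treats PTF1A as a marker of both horizontal and amacrine cells. LHX1, TFAP2A and PTF1A were at 18.4, 26.4 and 9.22 CPM in OTX2CRISPR RGCs and 33.5, 51.8 and 0 CPM in CTRL RGCs. In other OTX2CRISPR cells the 3 factors were at 197, 357 and 141 CPM, and in other CTRL cells at 46.0, 203 and 80.2 CPM. The retinal pigment epithelium list was at 46.1 CPM in OTX2CRISPR RGCs and 64.0 CPM in CTRL RGCs, above the other cells (21.5 CPM in OTX2CRISPR and 25.7 CPM in CTRL), with 9 of 12 genes at 0 in OTX2CRISPR RGCs and 10 of 12 in CTRL RGCs. The part of these cells in the results was not tested.

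To find what distinguished RGCs beyond the gate, summed UMIs of RGCs were compared with those of all other cells of the same library, over genes with at least 100 UMIs in that library and without the 14 gate genes. A gene was called when it differed at least 2-fold. In the OTX2CRISPR library 464 of 8710 genes (5.33%) were higher and 954 (11%) lower in RGCs. In the CTRL library 1111 of 8931 genes (12.4%) were higher and 1528 (17.1%) lower. Of 8382 genes measured in both, 320 (3.82%) were higher in both libraries, 630 (7.52%) lower in both and 9 (0.107%) called in opposite directions. The cells compared against differed. The CTRL library held 2116 cone gate cells (at least 10 UMIs of RBP4), while the OTX2CRISPR library held 92, and the OTX2CRISPR library held 823 BRINP2 gate cells (UMIs of at least 3 of those 5 genes), while the CTRL library held 23. Folds of the 2 libraries are therefore set side by side and not compared.

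The gene ranked first by its smaller ratio over the 2 libraries was TUSC5, also known as TRARG1, which acts in glucose transporter trafficking in mouse adipocytes. It reached 261 CPM in OTX2CRISPR RGCs and 19.7 CPM in other OTX2CRISPR cells, and 332 CPM in CTRL RGCs and 8.79 CPM in other CTRL cells (log2 ratios 3.73 and 5.24). ISL1, the LIM-homeodomain partner of the POU4F factors, followed with 730 CPM in OTX2CRISPR RGCs against 66.5 CPM in other OTX2CRISPR cells, and 890 CPM in CTRL RGCs against 61.1 CPM in other CTRL cells. Its log2 ratio was 3.46 in OTX2CRISPR (interval 3.30 to 3.61) and 3.86 in CTRL (3.67 to 4.06). ISL1 was not part of the gate.

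Others of the first 15 encoded a membrane scaffold, a peptide precursor and axonal proteins. EPB41L3, a membrane-cytoskeleton linker, was at 163 CPM in OTX2CRISPR RGCs (15.7 CPM in other cells) and 207 CPM in CTRL RGCs (11.1 CPM in other cells). PNOC, the precursor of the neuropeptide nociceptin, was at 123 CPM in OTX2CRISPR RGCs (14.1 CPM in other cells) and 94.5 CPM in CTRL RGCs (4.80 CPM in other cells), and had UMIs in 49 OTX2CRISPR and 17 CTRL RGCs. NRN1, a lipid-anchored protein that promotes neurite growth, reached 374 CPM in OTX2CRISPR RGCs (60.7 CPM in other cells) and 283 CPM in CTRL RGCs (3.79 CPM in other cells). DDAH1, which degrades the nitric oxide synthase inhibitor dimethylarginine, was at 393 CPM in OTX2CRISPR RGCs (61.1 CPM in other cells) and 405 CPM in CTRL RGCs (9.46 CPM in other cells).

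FGF13, an intracellular modulator of sodium channels, was at 196 CPM in OTX2CRISPR RGCs and 189 CPM in CTRL RGCs (log2 ratios over other cells 2.84 and 3.76). ALCAM, an immunoglobulin-family adhesion molecule of growing RGC axons, was at 48.8 CPM in OTX2CRISPR RGCs and 42.7 CPM in CTRL RGCs (log2 ratios 2.96 and 2.67). The other genes among the first 15 were C3orf70, JAKMIP1, NAV3, DAPK2, RBM24, OSBPL5 and DAAM2. Among these, DAAM2 had log2 ratios of 2.62 in OTX2CRISPR and 3.19 in CTRL, JAKMIP1 3.68 and 3.16, and NAV3 2.92 and 4.72. These 15 were chosen by their ratios, so their direction is not a finding.

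The 10 genes lowest in RGCs were mostly genes of dividing cells. NUSAP1, a spindle-associated protein, had 3 UMIs in OTX2CRISPR RGCs and 0 in CTRL RGCs, while it was at 207 CPM in other OTX2CRISPR cells and 365 CPM in other CTRL cells. Taking 3 UMIs as the floor of the CTRL RGCs, its log2 ratio in CTRL was at most -5.32. MKI67, a marker of cycling cells, was at 7.91 CPM in OTX2CRISPR RGCs (194 CPM in other cells) and 9.14 CPM in CTRL RGCs (343 CPM in other cells). CENPA, TTK, SMC2 and HMMR, which serve chromosome organization and segregation, and KIFC1L each had at most 3 UMIs in the RGCs of either library. The remaining 3 were HTRA1, a secreted serine protease, PRDM1, a transcriptional repressor of the photoreceptor lineage, and DIO3, which inactivates thyroid hormone. DIO3 had 3 UMIs in OTX2CRISPR and 5 UMIs in CTRL RGCs, against 1441 in other OTX2CRISPR cells and 5815 in other CTRL cells.

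**Figure D2:**
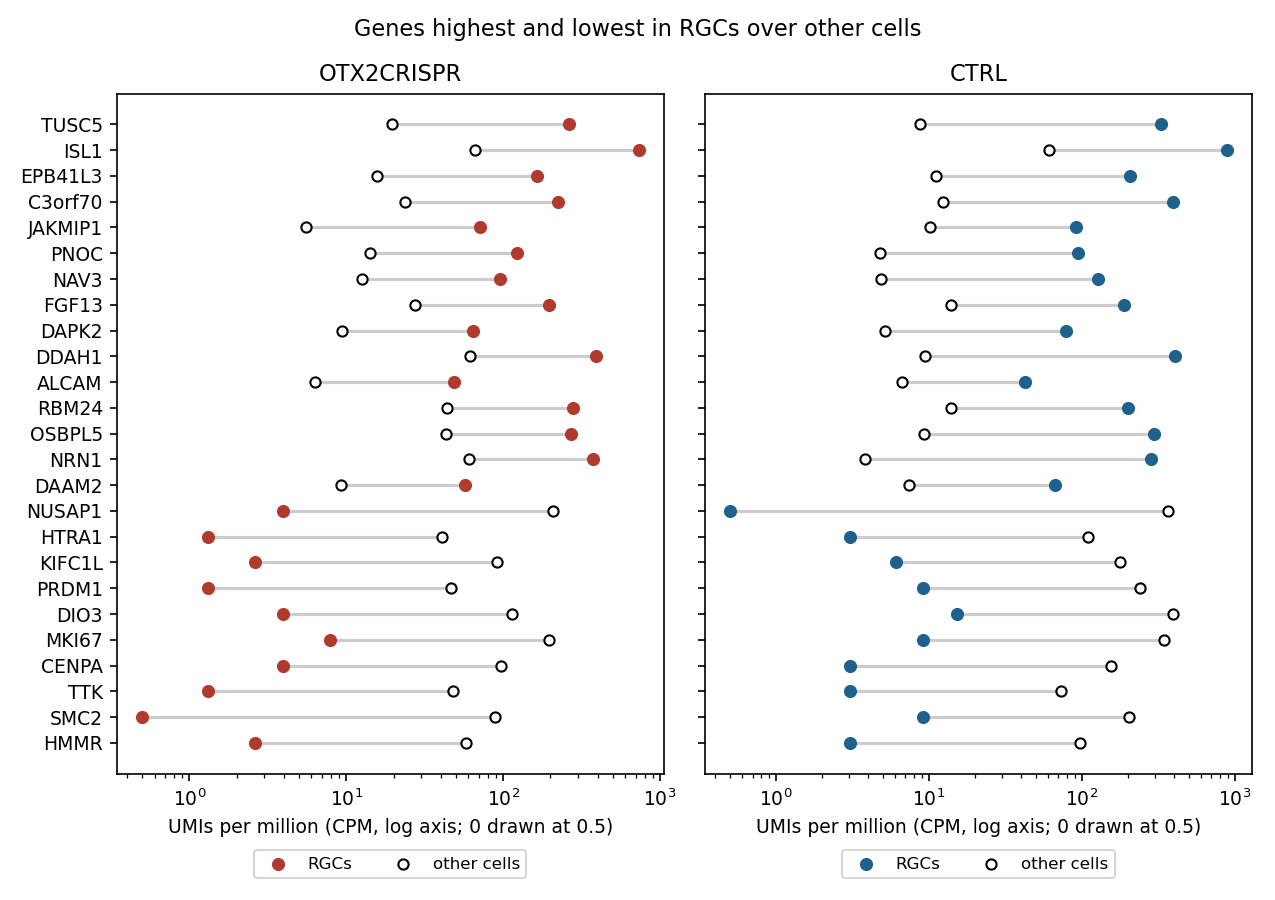
CPM (logarithmic) in RGCs (filled) and in the other cells of the same library (open) for the 15 genes highest and the 10 lowest in RGCs over other cells, with OTX2CRISPR on the left and CTRL on the right. Values of 0 are drawn at 0.5, and each point is a sum over cells of 1 library. ISL1 was at 730 CPM in OTX2CRISPR and 890 CPM in CTRL RGCs, while MKI67 was at 7.91 and 9.14 CPM.

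The cell cycle lists as a whole lay on the same side. None of the 50 tested G2/M genes was called higher in RGCs of either library, while 42 were lower in OTX2CRISPR and 46 in CTRL (medians -3.04 and -3.55 on the log2 scale, where the medians over all tested genes were 0.02 and 0.00). Of the S phase genes, 25 of 37 were lower in OTX2CRISPR and 27 of 40 in CTRL, and none was higher. Over all genes 5.33% were higher and 11% lower in OTX2CRISPR, and 12.4% and 17.1% in CTRL. The summed G2/M level was 2575 CPM in OTX2CRISPR RGCs and 2460 CPM in CTRL RGCs, against 8674 CPM in other OTX2CRISPR cells and 13544 CPM in other CTRL cells.

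Progenitor genes lay mostly below the other cells. Of the restricted progenitor list 10 of 11 genes were lower in OTX2CRISPR RGCs and 11 of 11 in CTRL RGCs, and none was higher. Of the multipotent progenitor list 11 of 12 were lower and 1 higher in OTX2CRISPR, and 8 of 14 lower and 1 higher in CTRL. The gene that was higher in both libraries was GLUL, glutamine synthetase, a gene of glial cells in the mature retina. Of the amacrine-type list 6 of 9 genes were lower in each library, with 2 higher in OTX2CRISPR and 3 in CTRL, among them DLX2 and HEY1 in both. The p53 and apoptosis list had 1 gene higher (5.88%) and 1 lower (5.88%) of 17 in OTX2CRISPR, and 2 higher (11.1%) and 3 lower (16.7%) of 18 in CTRL, shares near those over all genes (5.33% higher and 11% lower in OTX2CRISPR, 12.4% and 17.1% in CTRL).

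Genes of the axon and cytoskeleton list were broadly higher in RGCs. In OTX2CRISPR 29 of 49 tested genes were higher and 1 lower (median log2 ratio 1.07), against 5.33% and 11% over all genes. In CTRL 37 of 48 were higher and none lower (median 2.01), against 12.4% and 17.1% over all genes. GAP43, a growth cone protein, was at 747 CPM in OTX2CRISPR RGCs and 135 CPM in other cells, and at 756 CPM in CTRL RGCs and 27.2 CPM in other cells. STMN3 and DPYSL3, regulators of microtubules in growing axons, were at 216 and 311 CPM in OTX2CRISPR RGCs (50.2 and 69.7 CPM in other cells) and at 290 and 280 CPM in CTRL RGCs (21.5 and 67.0 CPM in other cells). NEFM, a neurofilament subunit, was at 242 CPM in OTX2CRISPR RGCs and 189 CPM in CTRL RGCs (log2 ratios 1.72 and 3.26), and TUBB3, a neuronal tubulin, at 2053 CPM in OTX2CRISPR and 2286 CPM in CTRL RGCs (1.51 and 2.72). With only cells of at most 2 RBP4 UMIs as the comparison, 28 genes were higher in OTX2CRISPR and 37 in CTRL.

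The transcription factor list divided into genes above and below the other cells. In OTX2CRISPR 13 of 51 were higher (25.5%) and 14 lower (27.5%), against 5.33% and 11% over all genes. In CTRL 18 of 49 were higher (36.7%) and 15 lower (30.6%), against 12.4% and 17.1% over all genes. EBF2, the paralog of the gate genes, was at 134 CPM in OTX2CRISPR RGCs and 27.9 CPM in other cells, and at 131 CPM in CTRL RGCs and 5.95 CPM in other cells. NHLH1, KLF7, SOX12, SP8 and MYT1L were past 2-fold in both libraries, with log2 ratios of 1.09 to 1.64 in OTX2CRISPR and 3.16 to 4.07 in CTRL. ELAVL4, a neuronal RNA-binding protein of the same list, was at 2583 CPM in OTX2CRISPR RGCs and 3262 CPM in CTRL RGCs, against 893 and 252 CPM in the other cells of OTX2CRISPR and CTRL. DLX2, which with DLX1 is required for RGC survival in mouse, was at 409 CPM in OTX2CRISPR RGCs (193 CPM in other cells) and 308 CPM in CTRL RGCs (41.2 CPM in other cells). Genes of the list below the other cells in both libraries included ONECUT2, LMO4, LHX2, FOXP2 and NEUROD1. ATOH7 itself had 3 UMIs in the RGCs of each library and 33 in other OTX2CRISPR and 26 in other CTRL cells, under the number needed for the comparison.

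Notch pathway and proneural genes were mostly low. In OTX2CRISPR 13 of 24 were lower and 2 higher (median -1.21), against 11% and 5.33% over all genes. In CTRL 14 of 23 were lower and 1 higher (median -2.01), against 17.1% and 12.4% over all genes. NEUROG2, a proneural bHLH factor, was at 225 CPM in OTX2CRISPR RGCs (1148 CPM in other cells) and 183 CPM in CTRL RGCs (875 CPM in other cells). The ligands DLL1 and DLL4 were at 36.9 and 7.91 CPM in OTX2CRISPR RGCs and at 21.3 and 15.2 CPM in CTRL RGCs, with log2 ratios between -2.41 and -3.96. HEY1, a transcriptional repressor downstream of Notch in other tissues, was the exception in both libraries. It reached 878 CPM in OTX2CRISPR RGCs (227 CPM in other cells) and 999.8 CPM in CTRL RGCs (106 CPM in other cells).

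Among ion channels, 12 of 29 tested genes were higher (41.4%) and none lower in OTX2CRISPR RGCs, against 5.33% and 11% over all genes. In CTRL RGCs 9 of 24 were higher (37.5%) and 4 lower (16.7%), against 12.4% and 17.1% over all genes. Besides FGF13 those higher in both included CACNA1E, an R-type calcium channel, at 128 CPM in OTX2CRISPR RGCs and 159 CPM in CTRL RGCs (28.3 and 18.5 CPM in the other cells of OTX2CRISPR and CTRL). The 4 genes lower in CTRL were KCNH6, HCN2, KCNIP2 and CACNA2D1. With cells of at most 2 RBP4 UMIs as the comparison 2 genes of the list were lower in CTRL, and the log2 ratio of KCNH6 was 1.37.

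Guidance and adhesion genes showed 13 higher and 13 lower of 59 in OTX2CRISPR (22.0% each, against 5.33% and 11% over all genes). In CTRL 17 of 57 were higher (29.8%) and 11 lower (19.3%), against 12.4% and 17.1% over all genes. The share lower in CTRL was thus near that over all genes. SLIT1, a secreted repellent for retinal axons, was at 1870 CPM in OTX2CRISPR RGCs (832 CPM in other cells) and 1049 CPM in CTRL RGCs (149 CPM in other cells). Its receptor ROBO2 was at 532 CPM in OTX2CRISPR RGCs and 555 CPM in CTRL RGCs (log2 ratios 1.31 and 0.78). EPHB3 and EPHB1, receptors for ephrin-B ligands, were past 2-fold in both libraries (1.61 and 1.22 in OTX2CRISPR, 2.05 and 1.17 in CTRL). UNC5D, a netrin receptor family member, was at 69.8 CPM in OTX2CRISPR RGCs and 82.3 CPM in CTRL RGCs, and at 6.75 and 2.16 CPM in the other cells of OTX2CRISPR and CTRL, with too few UMIs in CTRL to be tested there. Lower in both were SDK1, PCDH10, EPHA4, PCDH17, NRP1 and CNTN1.

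Of the transmitter and synapse genes, 2 were higher (5.88%) and 6 lower (17.6%) of 34 in OTX2CRISPR, and 8 higher (24.2%) and 5 lower (15.2%) of 33 in CTRL. Shares over all genes were 5.33% higher and 11% lower in OTX2CRISPR, and 12.4% and 17.1% in CTRL. The share higher in OTX2CRISPR and the share lower in CTRL were near these. CPLX2, which regulates vesicle release, was at 519 CPM in OTX2CRISPR RGCs (283 CPM in other cells) and 521 CPM in CTRL RGCs (62.2 CPM in other cells). ADCYAP1, the precursor of the peptide PACAP, was at 484 CPM in OTX2CRISPR RGCs (386 CPM in other cells) and 445 CPM in CTRL RGCs (70.6 CPM in other cells). CPLX2 and ADCYAP1 were past 2-fold in CTRL only. NPY and SLC32A1, the inhibitory vesicular transporter, were lower in both libraries. Of the secreted signals and their receptors, 5 of 21 were higher and 6 lower in OTX2CRISPR, and 7 of 21 higher and 7 lower in CTRL. CXCR4, a chemokine receptor, was at 291 CPM in OTX2CRISPR RGCs and 299 CPM in CTRL RGCs, against 71.8 and 18.9 CPM in the other cells of OTX2CRISPR and CTRL. NTRK3, the receptor for neurotrophin-3, was at 117 and 97.5 CPM in OTX2CRISPR and CTRL RGCs (log2 ratios 1.24 and 2.04).

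**Figure D3:**
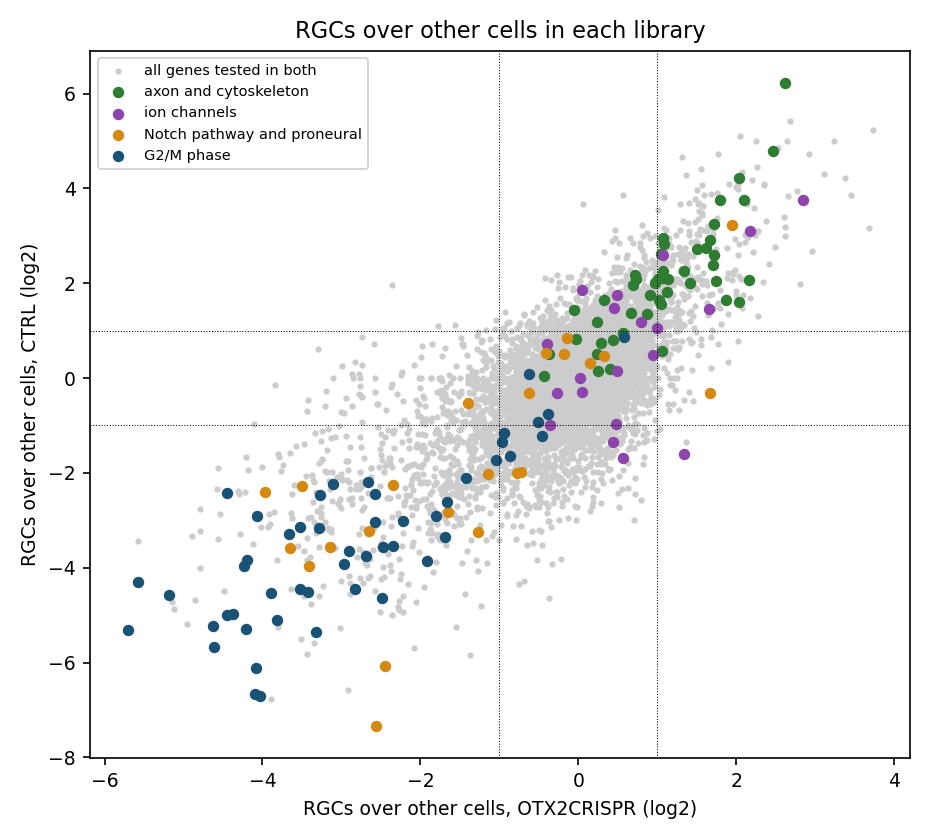
Log2 ratio of RGCs over other cells in the OTX2CRISPR library (horizontal axis) and in the CTRL library (vertical axis) for the 8382 genes tested in both, with 4 gene lists in color and dotted lines at 2-fold. Axon and cytoskeleton genes lie to the upper right and G2/M genes to the lower left, with medians of 1.07 and -3.04 in OTX2CRISPR.

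The reporter and the edited gene were low in RGCs of both libraries. OTX2 was at 105 CPM in OTX2CRISPR RGCs (80 UMIs in 40 of 221 cells) and 18.3 CPM in CTRL RGCs (6 UMIs in 4 of 73 cells), against 793 CPM in other OTX2CRISPR cells and 1759 CPM in other CTRL cells. Its log2 ratio of RGCs over other cells was -2.91 in OTX2CRISPR (interval -3.25 to -2.59) and -6.59 in CTRL (-8.03 to -5.47). After thinning each cell to 2000 UMIs, OTX2 was found in 12.1% of OTX2CRISPR RGCs and 2.74% of CTRL RGCs (18.1% and 5.48% unthinned), and in 84.4% of OTX2CRISPR and 98.3% of CTRL cone gate cells. The count of OTX2 transcripts does not distinguish edited from intact transcripts. The GFP reporter transcript was at 170 CPM in OTX2CRISPR RGCs (33 of 221 cells) and 39.6 CPM in CTRL RGCs (6 of 73 cells), against 643 CPM in other OTX2CRISPR and 558 CPM in other CTRL cells.

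The single-cell spread of the same genes was compared after thinning to 2000 UMIs, which left out 14 OTX2CRISPR and 0 CTRL RGCs. ISL1 had a UMI in 52.2% of OTX2CRISPR RGCs (interval 45.1% to 59.1%) and 67.1% of CTRL RGCs (55.1% to 77.7%), against 59.3% and 80.8% unthinned in OTX2CRISPR and CTRL. In cone gate cells, set beside them as a measure of background, the thinned share was 0% in OTX2CRISPR (0 of 45 cells, which allows up to 7.87%) and 0.508% in CTRL. GAP43 was found in 72.5% of OTX2CRISPR RGCs and 74.0% of CTRL RGCs after thinning, against 4.44% of OTX2CRISPR and 1.84% of CTRL cone gate cells. Median depth of cone gate cells was 1959 UMIs in OTX2CRISPR and 2538 UMIs in CTRL. NRN1 had a thinned share of 34.3% in OTX2CRISPR RGCs and 26.0% in CTRL RGCs (36.7% and 41.1% unthinned), and one of 2.22% in OTX2CRISPR and 0.0635% in CTRL cone gate cells.

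The levels varied widely among single RGCs. ISL1 ran between 0 and 3365 CPM over OTX2CRISPR RGCs with a median of 422 CPM, and between 0 and 3336 CPM over CTRL RGCs with a median of 750 CPM. ELAVL4 had a median of 2290 CPM in OTX2CRISPR RGCs (0 to 12649 CPM) and 3336 CPM in CTRL RGCs (413 to 10156 CPM). GAP43 had a median of 671 CPM in OTX2CRISPR RGCs and 656 CPM in CTRL RGCs. The ranges of the libraries overlapped for all 3 genes.

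The RGCs of both libraries were then compared with each other, over 3581 genes with at least 50 UMIs in the 294 cells, again without the gate genes. In OTX2CRISPR RGCs 91 genes (2.54%) were at least 2-fold higher and 27 (0.754%) at least 2-fold lower than in CTRL RGCs, and the median log2 ratio was -0.02. None of the 44 axon and cytoskeleton genes was past 2-fold (median 0.06), where 3.3% of all genes were past it in either direction, so this count is near the background. The log2 ratio of ISL1 was -0.29 (interval -0.49 to -0.08). The log2 ratio of GAP43 was -0.02, that of ELAVL4 -0.34 and that of NRN1 0.40.

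CRABP1 had the most UMIs of the genes named here as higher in OTX2CRISPR RGCs. It encodes a carrier of retinoic acid, and was at 1991 CPM in OTX2CRISPR RGCs and 348 CPM in CTRL RGCs (log2 ratio 2.52, interval 2.24 to 2.81), with UMIs in 170 of 221 OTX2CRISPR and 40 of 73 CTRL RGCs. Per cell the median was 606 CPM in OTX2CRISPR RGCs and 221 CPM in CTRL RGCs, with highest values of 50765 CPM and 5318 CPM. A single OTX2CRISPR cell held 156 of the 1511 CRABP1 UMIs, and a single CTRL cell held 37 of 114. Without the 2 cells with most CRABP1 UMIs in each library the log2 ratio was 2.94. In the other cells of both libraries CRABP1 was likewise higher in OTX2CRISPR, at 867 CPM against 85.9 CPM in CTRL.

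ASIC4, an acid-sensing channel subunit, was at 383 CPM in OTX2CRISPR RGCs (291 UMIs in 110 cells) and 54.9 CPM in CTRL RGCs (18 UMIs in 11 cells), a log2 ratio of 2.81 (interval 2.12 to 3.58). In the other cells it was at 161 CPM in OTX2CRISPR and 12.9 CPM in CTRL. NOTCH1, the receptor of the Notch pathway, was at 138 CPM in OTX2CRISPR RGCs (105 UMIs in 49 cells) and 9.14 CPM in CTRL RGCs (3 UMIs in 3 cells), a log2 ratio of 3.92 (interval 2.33 to 6.22). In the other cells the log2 ratio of NOTCH1 was 0.29, with 755 CPM in OTX2CRISPR. RACGAP1L was at 115 CPM in OTX2CRISPR RGCs (87 UMIs) and 6.10 CPM in CTRL RGCs (2 UMIs). It was also higher in the other OTX2CRISPR cells, at 58.5 CPM against 11.3 CPM in CTRL. OTX2 and the GFP reporter were also higher in OTX2CRISPR RGCs, with log2 ratios of 2.53 (1.34 to 4.02) and 2.10 (1.28 to 3.05). The OTX2 value rested on 6 CTRL UMIs. It was 1.07 without the RBP4 limit, which added 2 CTRL cells and no OTX2CRISPR cell, and 3.68 (1.76 to 6.76) without the 2 cells with most OTX2 UMIs in each library. For the GFP reporter 8 of the 13 CTRL UMIs came from 1 cell, and the log2 ratio was 3.19 (1.78 to 5.10) without the top 2 cells of each library.

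Some markers of other populations were higher in OTX2CRISPR RGCs and others were not. SPIK2, a gate gene, had a UMI in 22.2% of OTX2CRISPR RGCs and 9.59% of CTRL RGCs, with 157 CPM in OTX2CRISPR and 24.4 CPM in CTRL. SULF2 was at 236 CPM in OTX2CRISPR and 308 CPM in CTRL RGCs, BRINP2 at 9.22 and 21.3 CPM, and DUSP4 at 11.9 and 12.2 CPM. BRINP2 had 7 UMIs in the RGCs of each library, and 5 of those in CTRL came from 1 cell. ERBB4 had 6 UMIs in OTX2CRISPR RGCs and 0 in CTRL RGCs. Of 5 further genes listed for BRINP2-group cells 2 were higher in OTX2CRISPR RGCs and none lower, and these were CRABP1 and ONECUT3. Of the restricted progenitor genes 2 of 5 were higher, OTX2 among them, and of the horizontal cell genes 2 of 5, ONECUT1 and ONECUT2. No tested gene was lower in either list. Over all genes 2.54% were higher and 0.754% lower, so none lower in lists of 5 is near the background. LHX1 and TFAP2A, not among the horizontal cell genes tested, were at lower CPM in OTX2CRISPR than in CTRL RGCs, as given above. PTF1A, also not tested, was at 9.22 CPM in OTX2CRISPR RGCs and had 0 UMIs in CTRL RGCs. A count of 0 in CTRL RGCs allows up to 11.2 CPM, so no direction is given for it. The part of cells of other populations in the differences was not tested.

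Of the tested genes of the transcription factor list, which also holds ELAVL4, 5 of 34 (14.7%) were higher and none lower in OTX2CRISPR RGCs. Over all genes the shares were 2.54% higher and 0.754% lower. None lower is near the share over all genes. With at least 4 markers 2 of 34 were higher. Of the 5, ONECUT1, ONECUT2 and ONECUT3, which act in horizontal cell and RGC development, were at 233, 177 and 302 CPM in OTX2CRISPR RGCs and at 85.4, 79.3 and 91.4 CPM in CTRL RGCs. In CTRL 12 and 6 of the 26 ONECUT2 UMIs and 9 and 9 of the 30 ONECUT3 UMIs came from 2 cells. Without the top 2 cells of each library the log2 ratios were 2.06 for ONECUT1, 2.66 for ONECUT2 and 2.90 for ONECUT3, against 1.45, 1.16 and 1.72 with them. The remaining 2 were KLF6 and MEIS2. HES4, a bHLH repressor of the Notch list, was at 134 CPM in OTX2CRISPR RGCs and 42.7 CPM in CTRL RGCs. PCDH10 and PCDH17, adhesion molecules of the cadherin family, were at 71.2 and 93.6 CPM in OTX2CRISPR RGCs and at 9.14 and 27.4 CPM in CTRL RGCs. PCDH10 was also higher in the other OTX2CRISPR cells (224 CPM against 76.1 CPM in CTRL). FGF12, a relative of FGF13, and SCN8A, a sodium channel, were at 136 and 96.2 CPM in OTX2CRISPR RGCs and at 39.6 and 36.6 CPM in CTRL RGCs. The other genes named by rank were LOC112531871, LOC768392, LOC100857299 and FGFBP3, with log2 ratios of 2.52 to 3.79. Between the other cells of the libraries their log2 ratios were 1.81, 1.49, 1.09 and 0.14.

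Among genes lower in OTX2CRISPR RGCs the extreme value rested on single cells. HSPB9, a small heat shock protein gene, was at 54.0 CPM in OTX2CRISPR RGCs and 1896 CPM in CTRL RGCs, but 471 and 116 of the 622 CTRL UMIs came from 2 cells. Without the 2 RGCs with most HSPB9 UMIs in each library it was at 47.8 CPM in OTX2CRISPR and 113 CPM in CTRL (log2 ratio -1.23, interval -1.95 to -0.52). The same 2 CTRL cells held 117 of 224 HSP90AA1 UMIs, and without them HSP90AA1 was at 304 CPM in OTX2CRISPR and 344 CPM in CTRL RGCs. The dissociation stress list summed to 2311 CPM in OTX2CRISPR RGCs and 2878 CPM in CTRL RGCs, and to 2309 CPM in OTX2CRISPR and 2263 CPM in CTRL RGCs without those cells.

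PDE6G, the gamma subunit of rod phosphodiesterase, was spread over more cells, with 16 UMIs in 14 of 221 OTX2CRISPR RGCs and 57 UMIs in 28 of 73 CTRL RGCs. It was at 21.1 CPM in OTX2CRISPR RGCs and 174 CPM in CTRL RGCs, against 20.2 CPM in other OTX2CRISPR and 13.7 CPM in other CTRL cells (log2 ratio within RGCs -3.04, interval -3.94 to -2.22). After thinning it had a UMI in 4.35% of OTX2CRISPR RGCs and 26.0% of CTRL RGCs (6.33% and 38.4% unthinned), and in 6.67% of OTX2CRISPR and 1.71% of CTRL cone gate cells. ANXA2, a calcium-dependent membrane-binding protein, was at 39.5 CPM in OTX2CRISPR RGCs and 122 CPM in CTRL RGCs. NDUFA11, a subunit of mitochondrial complex I, was at 97.5 CPM in OTX2CRISPR RGCs and 256 CPM in CTRL RGCs, and was also lower in the other OTX2CRISPR cells (84.3 CPM against 217 CPM in CTRL). FOXO3, PSPH, RAB11FIP2, NIFK, GLUL and ADRM1 completed the 10, with log2 ratios between -1.31 and -1.45.

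**Figure D4:**
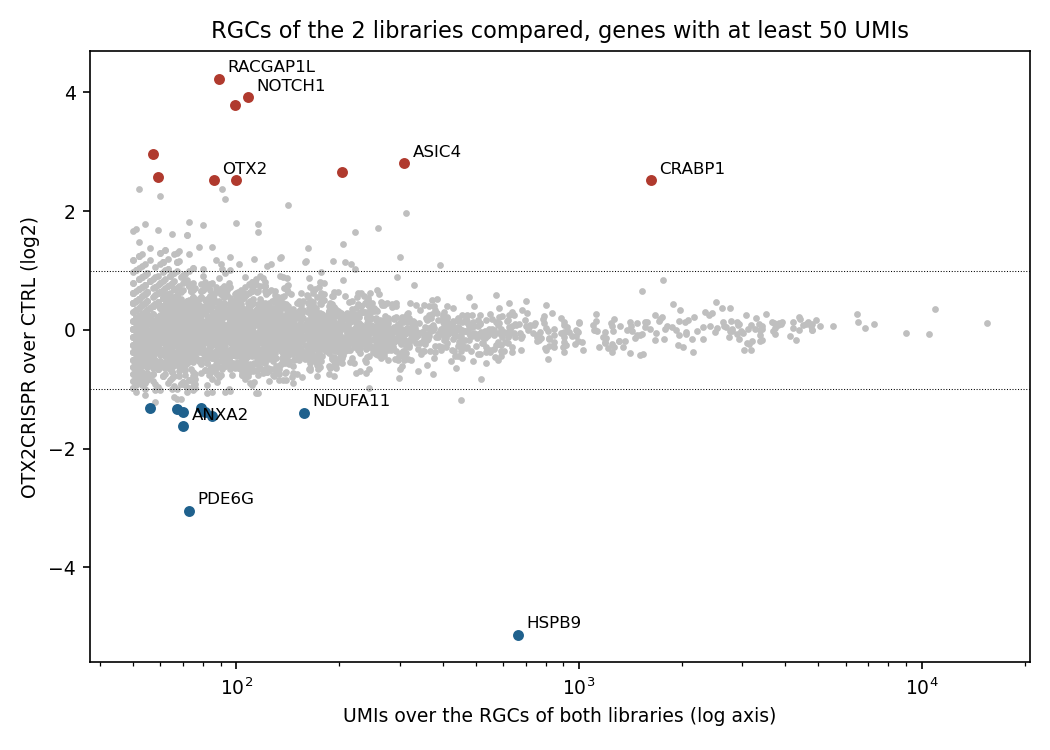
Log2 ratio of OTX2CRISPR over CTRL within RGCs (vertical axis) against the UMIs of each gene over the RGCs of both libraries (horizontal axis, logarithmic) for 3581 genes. Colored points are the 10 genes highest and the 10 lowest, and dotted lines mark 2-fold. CRABP1 lies at 2.52 with 1511 OTX2CRISPR and 114 CTRL UMIs, and HSPB9 at -5.13 rests mainly on 2 CTRL cells.

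The RGCs differed in how many of the 6 markers they showed, and other genes varied with that number. Of OTX2CRISPR RGCs 70 had 2 markers, 73 had 3 and 78 had 4 to 6, and of CTRL RGCs 11, 18 and 44 cells did so. Median depth was 2982.5, 3208 and 3650 UMIs over these classes in OTX2CRISPR and 3325, 3924.5 and 4295.5 UMIs in CTRL, so marker number moved with depth, and the part of depth in the following values was not tested. ISL1 was at 295, 632 and 1122 CPM in OTX2CRISPR RGCs with 2, 3 and 4 to 6 markers, and at 357, 579 and 1118 CPM in CTRL RGCs. TUSC5 was at 82.9, 287 and 368 CPM over the 3 classes in OTX2CRISPR and at 167, 264 and 392 CPM in CTRL. Within each class the intervals of the libraries overlapped for both genes.

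CRABP1 ran the other way in OTX2CRISPR, at 3055, 2042 and 1185 CPM with 2, 3 and 4 to 6 markers, while CTRL RGCs had 119, 780 and 228 CPM. NOTCH1 was at 276, 91.5 and 76.3 CPM in OTX2CRISPR and at 0, 12.6 and 9.68 CPM in CTRL. ONECUT3 was at 553, 279 and 139 CPM in OTX2CRISPR and at 71.5, 75.5 and 102 CPM in CTRL. The GFP reporter was at 313, 225 and 23.2 CPM in OTX2CRISPR and at 238, 0 and 14.5 CPM in CTRL. The CTRL values of these genes rest on few cells. Of the 13 GFP UMIs in CTRL RGCs 8 came from 1 cell, which had 2 markers. For CRABP1 37 of the 114 CTRL UMIs came from 1 cell, and for ONECUT3 9 and 9 of the 30 from 2 cells.

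Some differences between libraries were smaller among RGCs with 4 to 6 markers, and others were near their values over all RGCs. The part of marker number in them was not tested. Restricted to RGCs with 4 to 6 markers, a restriction added after seeing these values, the log2 ratio of OTX2CRISPR over CTRL was 2.38 for CRABP1 (interval 1.94 to 2.85), 2.13 for ASIC4 (1.34 to 3.03) and 2.98 for NOTCH1 (0.96 to 6.11). It was -2.95 for PDE6G (-4.36 to -1.76). For ONECUT3 it was 0.46 (-0.33 to 1.28), for ONECUT2 0.22 (-0.99 to 1.51) and for the GFP reporter 0.68 (-1.45 to 3.26), each with an interval that includes 0. These 3 values rest on few CTRL cells. Of the 30 ONECUT3 UMIs in CTRL RGCs, 9 and 9 came from 2 cells, both with 4 to 6 markers. Of the 26 ONECUT2 UMIs, 12 and 6 came from 2 cells, and the GFP reporter had 13 UMIs in all CTRL RGCs. The class was not compared without such cells. ISL1 was at 0.00 (-0.24 to 0.25). OTX2 was at 1.87, a value that rests on few counts, since all CTRL RGCs together held 6 OTX2 UMIs.

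**Figure D5:**
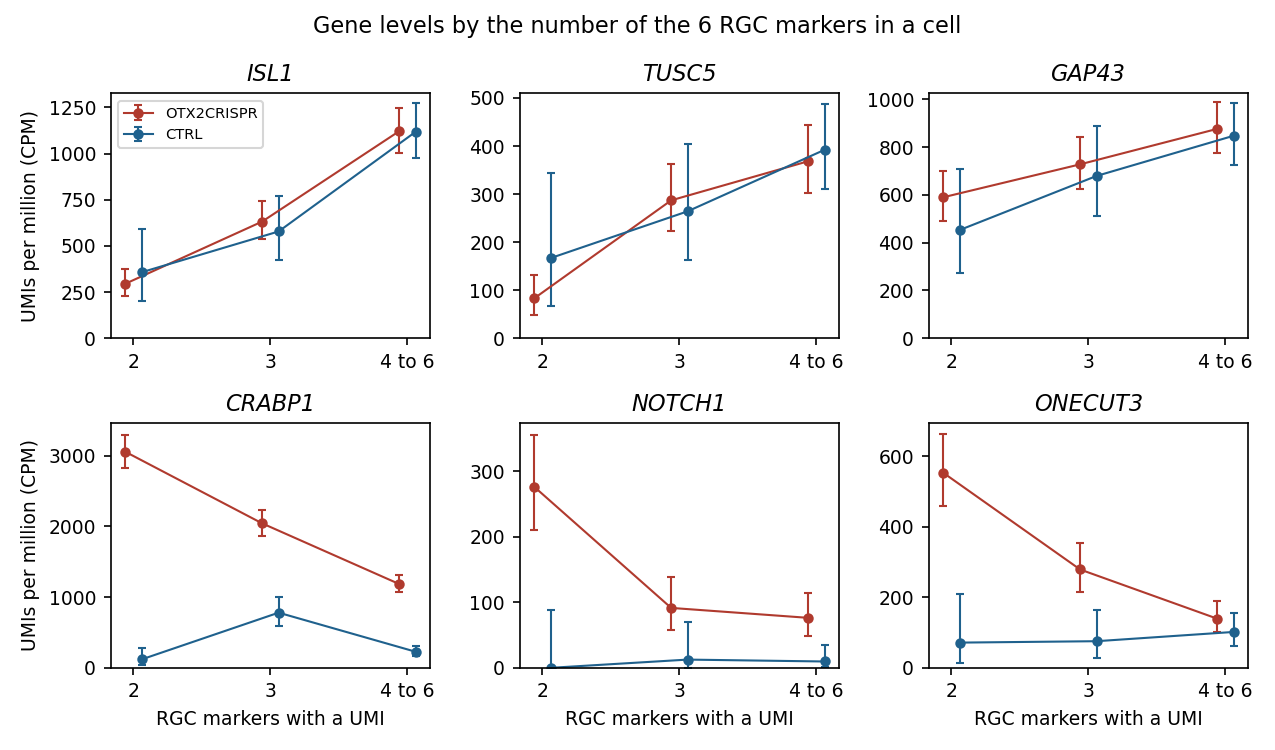
CPM of 6 genes in RGCs with 2, 3 and 4 to 6 of the 6 markers, for OTX2CRISPR (red, left of each pair) and CTRL (blue), with 95% Poisson intervals that cover counting error only. ISL1 was at 1122 CPM in OTX2CRISPR and 1118 CPM in CTRL RGCs with 4 to 6 markers, and CRABP1 was at 1185 and 228 CPM.

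RGCs with and without a POU4F1 UMI were set side by side as a description, since POU4F1 belongs to the gate. The 29 OTX2CRISPR RGCs with POU4F1 had a median depth of 3642 UMIs, against 3244 in the 192 without, and the 17 CTRL RGCs with it had 4648 UMIs, against 3957 in the 56 without. In OTX2CRISPR 109 of the same 3581 genes were at least 2-fold higher (3.04%) and 269 lower (7.51%) in RGCs with POU4F1, and in CTRL 196 were higher (5.47%) and 327 lower (9.13%). Of these genes, 27 (0.754%) were at least 2-fold higher in RGCs with POU4F1 in both libraries, 48 (1.34%) lower in both and 22 (0.614%) past 2-fold in opposite directions. REEP1, an endoplasmic reticulum-shaping protein of axons, was at 1177 CPM with and 426 CPM without POU4F1 in OTX2CRISPR RGCs, and at 1114 CPM with and 442 CPM without it in CTRL RGCs. NRN1 was at 728 CPM with and 313 CPM without POU4F1 in OTX2CRISPR, and at 534 CPM with and 194 CPM without it in CTRL. DDAH1 and FGF13 were also past 2-fold higher in both libraries. Lower with POU4F1 were DLX2, at 171 CPM with and 449 CPM without it in OTX2CRISPR and 46.4 CPM with and 401 CPM without it in CTRL, and SP8, at 171 and 429 CPM in OTX2CRISPR and 221 and 475 CPM in CTRL. PNOC and CRABP1 were lower with POU4F1 as well, CRABP1 at 395 CPM with and 2265 CPM without it in OTX2CRISPR and 197 CPM with and 401 CPM without it in CTRL. REEP1 and the other genes named for this split were picked by their values, so their direction is not a finding.

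RGCs were last set against other cell groups of the same library. Of the BRINP2 gate cells in the OTX2CRISPR library, 131 of 823 met every other RGC condition. STMN2, a neuronal microtubule regulator, had a log2 ratio of RGCs over BRINP2 gate cells of 0.18 (interval 0.08 to 0.27) in OTX2CRISPR, and CRABP1 one of 0.05 (-0.03 to 0.14). ISL1 (3.20, interval 2.96 to 3.45), TUSC5 (3.15), FGF13 (2.78) and GAP43 (1.69) were higher in RGCs. In CTRL the BRINP2 gate held 23 cells, of which 20 met the other RGC conditions, and the log2 ratio of ISL1 there was -0.02 (-0.37 to 0.34). Against LHX1 gate cells (LHX1 with TFAP2A or TFAP2B), which carry horizontal cell factors, ISL1 was higher in RGCs by a log2 ratio of 4.43 in OTX2CRISPR (3.93 to 4.98) and 1.52 in CTRL (1.19 to 1.86). GAP43 was higher by 4.56 in OTX2CRISPR and 5.96 in CTRL. The study divides horizontal cells into an LHX1-positive and an ISL1-positive cluster, and this gate requires LHX1. The ISL1 ratio therefore does not cover ISL1-positive horizontal cells, which were not compared.

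The gated RGCs were also set against the cells left out only by the BRINP2-group limit. In OTX2CRISPR the log2 ratio of gated RGCs over them was 0.62 for ISL1 (interval 0.45 to 0.80), 0.84 for TUSC5, 0.32 for GAP43 and 0.05 for ELAVL4, while OTX2 was at -1.07 and the GFP reporter at -1.90 (-2.18 to -1.63). In CTRL it was -0.09 for ISL1 (-0.34 to 0.17), 0.40 for TUSC5 and 0.00 for GAP43. Nucleotide sequences and genome positions were not used here.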

How the data were processed

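Cells were sorted from electroporated chick retinas and profiled on the 10x Chromium platform, which tags each transcript with a cell barcode and a UMI. The authors deposited counts of UMIs per gene and barcode, unnormalized, for each library. Per the submitters' processing notes these were made with Cell Ranger on GRCg6a, and the file headers give version 3.0.2. The OTX2CRISPR library (labelled ko retina) held 13366081 UMIs in 4953 barcodes and the CTRL library (labelled wt retina) 15177210 UMIs in 5128 barcodes.

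Cells with 200 to 3200 genes were kept. No doublet caller was run and no doublet removed, and an alternative left out the 4% of cells with most UMIs in each library. Cells were summed, scaled to CPM and compared as log2 ratios. A sum of 0 was set to a floor of 3 UMIs over the group, and ratios with a floored sum are bounds. Genes needed 100 UMIs in a library, or 50 over the RGCs of both. Genes past 2-fold were counted. Intervals are 95% and exact. Thinning drew 2000 UMIs per cell without replacement. Ratios were tested on simulated data.

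Genes named were the gate genes, OTX2 and the reporter, the 15 highest and 10 lowest in RGCs by the smaller ratio over both libraries, the 10 highest and 10 lowest between libraries, and members of gene lists. The gate, the members and the lists were chosen with earlier results of these data known. The alternatives were other forms of the gate, weighting, thinning, scaling, UMI minimums and comparison cells. Python 3.11.15, numpy 2.4.6, pandas 2.3.3, scipy 1.17.1 and matplotlib 3.10.9 were used. Some genes of the comparisons and lists are counted but not reported here.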

Additional observations from a re-analysis of the deposited data

Results flagged for a closer look

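For 8 genes given here RGCs lay at least 2-fold on opposite sides of the other cells in the 2 libraries, a difference that was not tested. HSPB9 had a log2 ratio of -2.36 in OTX2CRISPR and 1.96 in CTRL, where 2 cells held 587 of its 622 RGC UMIs. KCNH6, a potassium channel gene, was at 1.34 in OTX2CRISPR and -1.60 in CTRL, with 19 and 6 RGC UMIs in OTX2CRISPR and CTRL. Its other cells held 125 UMIs in OTX2CRISPR and 820 in CTRL. Against other cells of at most 2 RBP4 UMIs its CTRL ratio was positive, as given above. CNTN4, an axonal adhesion molecule, was at -1.06 in OTX2CRISPR and 1.05 in CTRL, with 14 and 13 RGC UMIs. The other 5 each had at most 18 RGC UMIs in a library. HSF3 was at -1.05 in OTX2CRISPR and 1.22 in CTRL, NMD3 at -1.56 and 1.13, and ARRDC1 at -1.78 and 1.10. KBTBD8 was at 1.37 in OTX2CRISPR and -1.35 in CTRL, and SDF4 at 1.03 and -1.07.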

How the results depend on the processing

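No paired analysis was possible because each condition had 1 library and the labels give no replicate numbers. The share of RGCs was 6.23% in OTX2CRISPR and 1.93% in CTRL with the gate applied after thinning, 5.55% and 1.83% without the EBF condition, 10.6% and 2.46% without the BRINP2-group limit (log2 ratio 2.10), and 7.27% and 1.99% with SULF2 left out of that limit. In OTX2CRISPR it was 3.05% with at least 3 markers, 6.65% with at least 1, and 5.21% with at least 1 POU4F gene. With a minimum of 20 UMIs, 904 of 11682 tested genes in OTX2CRISPR and 1791 of 11752 in CTRL were higher in RGCs than in other cells. With the minimum of 100 UMIs these were 464 of 8710 and 1111 of 8931. Between the libraries 207 of 3581 genes were higher and 96 lower in OTX2CRISPR RGCs after thinning. Without the 4% of cells with most UMIs 144 were higher and 61 lower of 3581. With at least 100 UMIs 28 were higher and 5 lower of 1939, where the main comparison had 91 and 27 of 3581. The number tested changed with the UMI minimum, so those counts are not like for like. With at least 4 markers 94 of 3581 genes were lower, an alternative chosen after seeing the data.

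In CTRL the sign of some ratios over other cells changed when those had at most 2 RBP4 UMIs. These were ISL2 (0.11), RXRG (0.20), NFASC (0.42), DSCAM (4.64), GRIA2 (0.59), KCNH6 (1.37), CACNA2D1 (0.18), HCN2 (0.11), KIT (0.94), CNTFR (0.32), PDE6H (2.32), OPN1LW (0.55) and OTX5 (1.39). The comparison cells then hold few cones by construction. Some of these ratios rest on few UMIs. In CTRL RGCs ISL2 had 1 UMI, KCNH6 had 6, and the 20 genes of the cone list together had 28. HSPB9 in CTRL changed to -0.53 without the 4% of cells with most UMIs and to -2.11 without the 2 cells with most of it.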
